A study of Mus musculus with 10 samples.

Results

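Renin cells of the right and the left kidney were compared in mice whose aorta had been narrowed between the origins of the renal arteries. The 6 libraries compared, 1 from each kidney of 3 mice with aortic coarctation, are 6 of the 10 in the study, and were chosen by the sample labels, which give the surgery, the mouse and the side. The other 4 libraries come from the kidneys of 2 mice with sham surgery, in which the aorta was neither exposed nor narrowed, and serve as controls. All 5 mice were C57BL/6 animals of 8 to 12 weeks that carried the Ren1c-YFP reporter, in which a yellow fluorescent protein marks cells with an active renin gene, and all were studied 72 h after surgery. From each kidney cortex 1000 living fluorescent cells were sorted and their RNA was amplified and sequenced. The sort therefore defines the cells by reporter fluorescence, and no library holds all cells of a kidney. The labels call the mice biological replicates. They do not say which kidney lay beyond the narrowing and give no pressures, so the sides are called right and left here.

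Renin cells, or juxtaglomerular cells, lie in the wall of the afferent arteriole at the entrance of the glomerulus. They are modified smooth muscle cells that synthesise renin in the endoplasmic reticulum, store it in granules related to lysosomes and release it into the blood, where it starts the cascade that forms angiotensin II. Release and synthesis rise when the pressure in the arteriole falls or when cyclic AMP rises after beta-adrenergic stimulation, and fall when the pressure rises.

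The 6 libraries held 23972981 to 32006229 estimated counts. Log2 CPM (counts scaled to library size, on a log scale) of the tested genes correlated between any pair of the 6 libraries at 0.893 to 0.926. The defining transcripts of the labelled cell type were present in every library. Ren1 alone made up 0.545% to 4.86% of all transcripts, and the reporter transcript EYFP stood at 60.6 to 959 TPM (a level corrected for transcript length and library size). Other transcripts typical of renin cells and their precursors, all chosen after their values were seen, were present as well. The connexin gene Gja4 ranged from 17.6 to 68.2 TPM, the LIM protein gene Crip1 from 10455 to 22124 TPM and the receptor gene Pdgfrb from 4.64 to 17.6 TPM. Transcripts of other kidney and blood cells were also present, and are given at the end beside the results they move with.

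**Figure D1:**
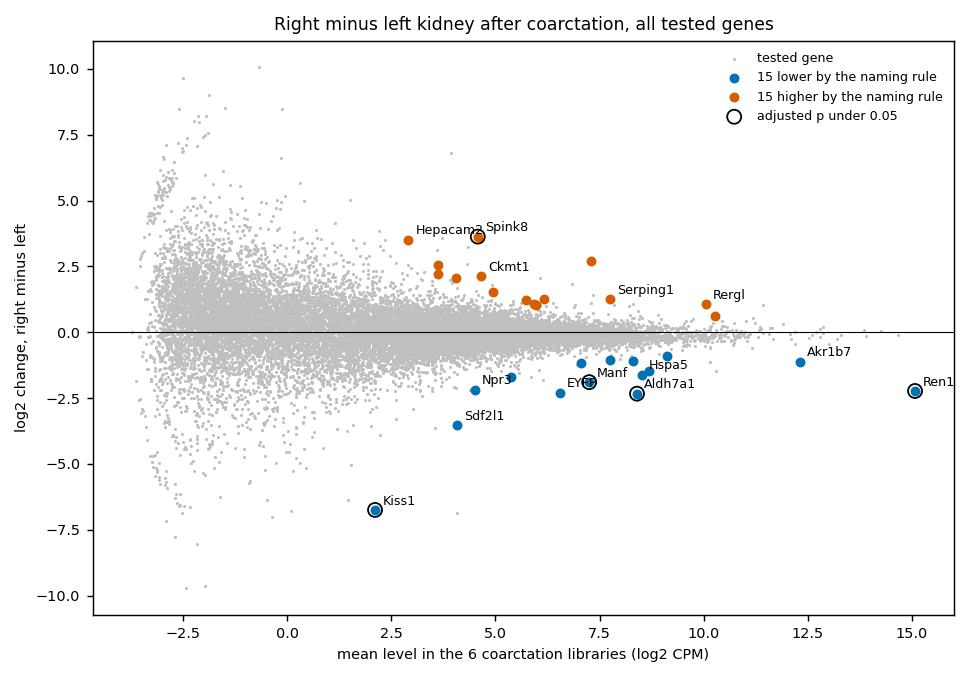
Log2 change from left to right kidney (vertical axis) against the mean level in the 6 coarctation libraries in log2 CPM (horizontal axis) for 18825 tested genes (grey). Blue and orange points are the 15 lower and 15 higher genes with the smallest p by the naming rule, and circles mark the 5 genes with an adjusted p under 0.05, of which Ren1 has the highest level.

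The comparison asks which transcripts of renin cells differ between the kidneys on either side of a narrowed aorta. Transcripts of renin itself and of the machinery that folds secreted proteins led those that were lower in the right kidney. Of 18825 genes tested, 4 were lower in the right kidney than in the left (0.0212%), which were Ren1, Manf, Kiss1 and Aldh7a1, and 1 was higher (0.00531%), which was Spink8. These are calls at an adjusted p under 0.05 in an edgeR quasi-likelihood test that compares the kidneys within each mouse, with Benjamini-Hochberg adjustment over all tested genes. Such a call compares the sides and does not tell which of them changed. With libraries scaled to their totals alone the split was 4 lower and 4 higher, and the median log2 change of all genes was 0.18 in place of 0.03. At an unadjusted p under 0.05, 622 genes were lower (3.30%) and 495 higher (2.63%). In all 3 mice 2538 genes were lower (13.5%) and 2722 were higher (14.5%), and these shares are the background against which the counts in each gene list below should be read. Every right kidney had a lower TPM than every left one in 559 of the 18825 genes, and a higher TPM in 1542. A lack of overlap reported below for a single gene should be read against these numbers. The 3 mice had little in common across genes as a whole: over the 10210 genes with a mean level of at least 2 log2 CPM, the changes correlated at 0.06 (Pearson) between mice 1 and 2, 0.10 between mice 1 and 3 and -0.01 between mice 2 and 3. These are correlations across genes, which are not independent replicates.

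Ren1, which encodes renin (chromosome 1, 133350510 to 133360325, plus strand, GRCm38, 9 exons), was lower in the right kidney than in the left. It was at 29285, 48619.9 and 36877 TPM in the left kidneys of mice 1, 2 and 3 and at 5451, 11982 and 10836 TPM in their right kidneys. The groups did not overlap, and the highest right kidney held less than the lowest left one. The log2 change was -2.23 (SE 0.14, adjusted p = 0.00275), and -2.52, -2.17 and -2.00 within mice 1, 2 and 3. The sham kidneys lay above every right coarctation kidney, at 30521 and 43896 TPM on the left and 21776 and 48591 TPM on the right of mice 1 and 2. In bulk libraries fewer cells of a type among those sorted and less RNA per cell cannot be told apart.

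EYFP, the reporter that the sort relied on, was at 413, 959 and 369 TPM in the left and 60.6, 174 and 164 TPM in the right kidneys. Its groups did not overlap either, and its log2 change of -2.30 (SE 0.31) was about that of Ren1, without passing (adjusted p = 0.0734). In the sham mice EYFP differed far more between mice than between sides, at 189 and 717 TPM on the left and 176 and 979 TPM on the right. Akr1b7, an aldo-keto reductase long used as a second marker of renin cells (chromosome 6, 34412334 to 34423142, plus strand), was at 3249, 6181 and 5503 TPM in the left and 1246, 3405 and 3508 TPM in the right kidneys. It was lower on the right in every coarctation mouse, but mouse 1 was low on both sides, so that the groups overlapped (log2 change -1.12, SE 0.15, adjusted p = 0.0734).

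Aldh7a1, a mitochondrial and cytosolic enzyme of lysine degradation that also clears reactive aldehydes, was lower on the right and passed. It was at 324, 670.3 and 229 TPM in the left and 49.5, 116 and 95.7 TPM in the right kidneys of mice 1, 2 and 3. The highest right value was below the lowest left one, and the log2 change was -2.33 (SE 0.25, adjusted p = 0.0437). Sham kidneys were at 281 and 514 TPM on the left and 242 and 485 TPM on the right, so the sham right kidneys resembled the left ones. Exons of Aldh7a1 overlap those of Phax, a gene of the other strand whose log2 change was -0.43 (SE 0.20). The amplification kit does not mark strand, so reads from the overlap cannot be assigned.

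Genes that mark renin cells and their precursors did not all go with Ren1. Of the 20 tested members of the identity list 6 were lower at an unadjusted p under 0.05 and 1 was higher, and 6 were lower and 2 higher in all 3 mice. The fitted median log2 change was 0.03, the same as over all genes (-0.21 without mouse 3). Within mice 1, 2 and 3 the median was -0.44, -0.26 and 0.13, so the mice differed in direction. Aldh7a1 was put on this list with earlier results of these data known. The 6 were Ren1, Aldh7a1, EYFP, Akr1b7, Gja5 and Crip1. Gja5, the connexin of the gap junctions between juxtaglomerular cells, was at 22, 16.2 and 10.9 TPM in the left and 13.5, 4.44 and 5.99 TPM in the right kidneys (log2 change -1.30, SE 0.31). Crip1 was at 12738, 22124 and 17032 TPM and 10455, 16446 and 15801 TPM, a small difference in the same direction in each mouse (log2 change -0.43, SE 0.09). The mural cell genes Rgs5, Notch3 and Pdgfrb had log2 changes of 0.17, 0.04 and 0.20, each smaller than its standard error or about equal to it, and Gja4 one of 0.05. The connexin gene Gjc1, the member with an unadjusted p under 0.05 in the other direction, was at 36.3, 43.1 and 31.4 TPM in the left and 51.2, 55.4 and 63.9 TPM in the right kidneys. None of Gja5, Crip1, Rgs5, Notch3, Pdgfrb, Gja4 and Gjc1 passed over all genes, and all were named after their values were seen.

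**Figure D2:**
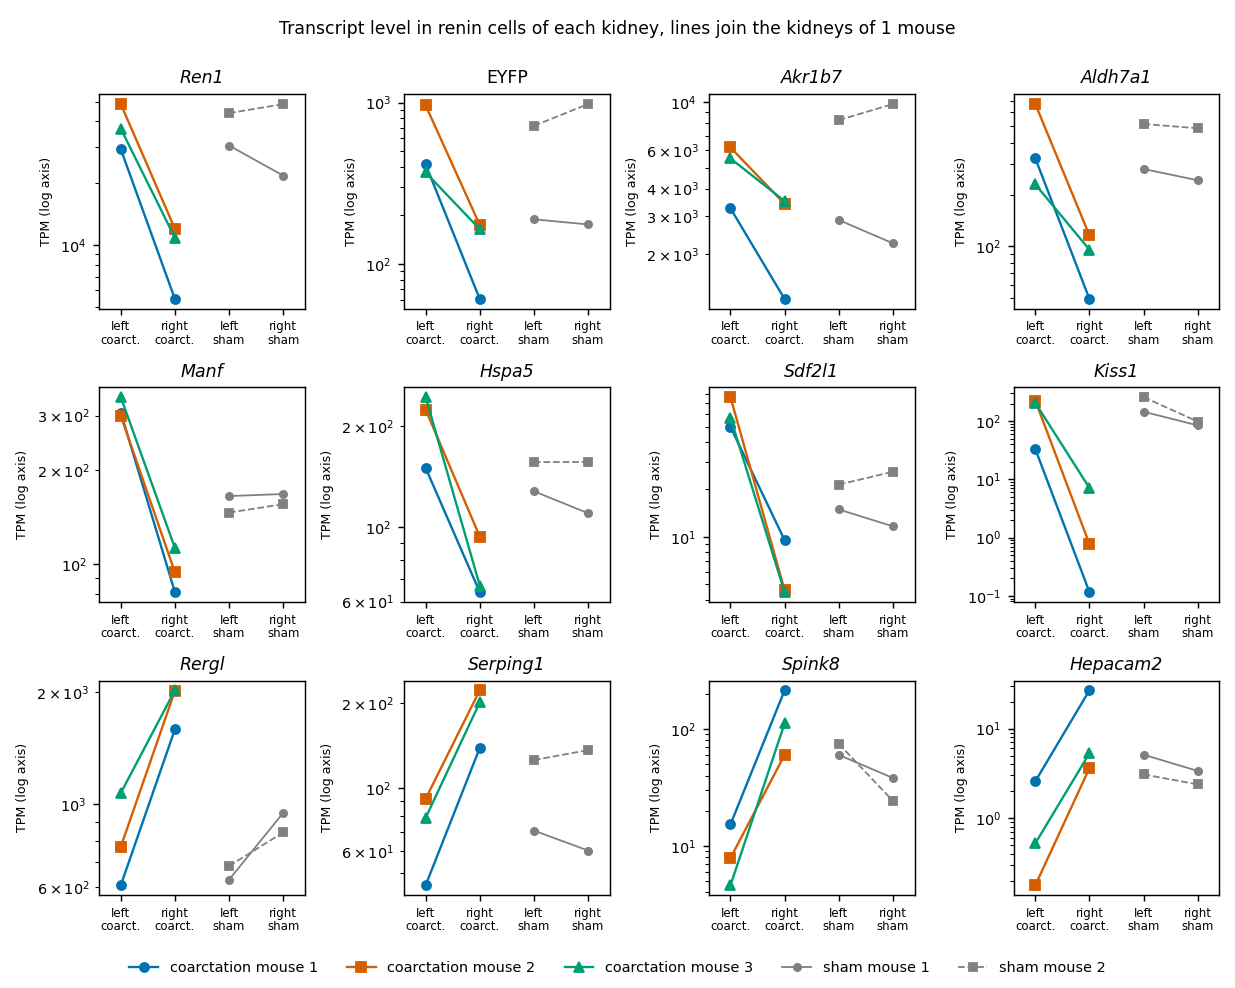
Level in TPM (log axis) of 12 transcripts in each library, with a line joining the left and right kidney of 1 mouse. Coloured lines are the 3 coarctation mice, grey lines the 2 sham mice. Ren1, EYFP, Aldh7a1, Manf, Hspa5, Sdf2l1 and Kiss1 are lower in every right coarctation kidney than in every left one, and Rergl, Serping1, Spink8 and Hepacam2 higher. Akr1b7 overlaps between sides.

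The calls rest on comparing kidneys within a mouse and on all 3 mice. With the kidneys treated as independent libraries (no replicate block) 0 genes passed in edgeR (871 at an unadjusted p under 0.05, smallest adjusted p = 0.125), and without coarctation mouse 2 also 0 (1188 at an unadjusted p under 0.05; Ren1 at 0.0549), while DESeq2 called 245 genes and limma-voom 17. Ren1 alone remained called without coarctation mouse 1, without sham mouse 1 or with the 6 coarctation libraries fitted by themselves, and without coarctation mouse 3 Ren1, Kiss1 and Aldh7a1 remained of the 5. Aldh7a1 was not called with libraries scaled to their totals (adjusted p = 0.0610). Across the alternatives the range of the adjusted p was 0 to 0.165 for Ren1, 1.17e-16 to 0.225 for Manf, 5.54e-38 to 0.244 for Kiss1, 4.6e-41 to 0.316 for Aldh7a1 and 6.82e-19 to 0.516 for Spink8. The lowest of these came from the fit with no filter on low counts, where that of Ren1 was too small to be stored, and for Manf from DESeq2.

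Whether these differences between sides were larger after coarctation than after sham surgery was tested in the same model. In edgeR 0 of the 18825 genes passed (0%), with 782 at an unadjusted p under 0.05 and the smallest adjusted p, 0.181, for Ren1; DESeq2 called 115 and limma-voom 0. For Ren1 the side change in coarctation mice minus that in sham mice was -2.02 on the log2 scale (SE 0.21), with only 2 sham mice behind the second of these. The sham values given below are therefore a description.

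The endoplasmic reticulum is where secreted proteins such as renin are imported, folded and given their sugars. When unfolded protein builds up there, sensors in its membrane start the unfolded protein response, which raises the transcripts of chaperones through a promoter sequence called the endoplasmic reticulum stress element. This element consists of CCAAT and CCACG with 9 bases of any kind between them. It was searched on both strands in the 250 bases before the RefSeq start of each gene (GRCm38.p6) and occurred in 35 of the 27025 genes of the promoter table (0.13%). Of the 29 members of the list of chaperones and folding enzymes 23 had a promoter there, and 7 of these held it (30.4%): Hspa5, Hsp90b1, Calr, Canx, Pdia6, Dnajc3 and Creld2. The elements of the 3 members that the naming rule selects are shown because these genes lead the list described next. Capitals mark both parts of the element and the sequences read in the direction of each gene; where the element lies on the opposite strand its parts appear as CGTGG and ATTGG.
Hspa5, chr2:34772020-34772048, plus strand, element 65 to 47 bases before the start: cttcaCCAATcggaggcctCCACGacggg
Hsp90b1, distal element, chr10:86705633-86705661, minus strand, 212 to 194 bases before the start: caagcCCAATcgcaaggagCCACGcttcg
Hsp90b1, proximal element, opposite strand, chr10:86705528-86705556, minus strand, 107 to 89 bases before the start: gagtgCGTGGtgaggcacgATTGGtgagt
Calr, opposite strand, chr8:84847070-84847098, minus strand, 162 to 144 bases before the start: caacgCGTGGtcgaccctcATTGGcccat
A match describes these letters only and does not show that a factor binds them in these cells. Manf is named only, as it was not matched in the table.

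Chaperones and folding enzymes of the endoplasmic reticulum mostly had lower levels in the right kidney. Of 29 tested members 26 had a log2 change below 0 and 3 above, 16 were lower in all 3 mice and 1 was higher in all 3, and 15 were lower and 0 higher at an unadjusted p under 0.05. These counts compare with 13.5% of all genes lower in all 3 mice and 3.30% lower at that p. The median log2 change was -0.59, and -0.80, -0.72 and -0.65 within mice 1, 2 and 3, so each mouse showed it. The 15 became 8 without coarctation mouse 2 and 9 without the replicate block, with medians of -0.62 and -0.59. In sham mice 1 and 2 it was -0.30 and 0.01. Only Manf passed over all genes.

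Manf, a secreted factor of the endoplasmic reticulum that is raised by unfolded protein (chromosome 9, 106838312 to 106891979, minus strand, 5 exons), was lower in the right kidney than in the left. It was at 307, 300.2 and 344 TPM in the left and 81.1, 93.9 and 113 TPM in the right kidneys of mice 1, 2 and 3. The 3 mice agreed closely, with changes of -2.01, -1.83 and -1.84 on the log2 scale (fitted change -1.90, SE 0.17, adjusted p = 0.0197). Sham kidneys lay between both groups, at 165 and 146 TPM on the left and 168 and 156 TPM on the right. Exons of Manf overlap those of Dcaf1 and Rbm15b in the annotation, so a part of its reads may be shared.

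Sdf2l1, a partner of the chaperones Hspa5 and the DnaJ proteins (chromosome 16, 17130138 to 17132383, minus strand), had the lowest log2 change of the list. It was at 49.7, 76.7 and 56.8 TPM in the left and 9.53, 4.59 and 4.46 TPM in the right kidneys, with sham kidneys between them at 14.9 and 21.4 TPM on the left and 11.7 and 25.8 TPM on the right. The change was larger in mice 2 and 3 than in mouse 1 (-2.47, -4.19 and -3.87 in mice 1, 2 and 3) and did not pass (log2 change -3.53, SE 0.46, adjusted p = 0.0734).

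Hspa5, also known as BiP or GRP78, the Hsp70 chaperone inside the endoplasmic reticulum and the classical target of the element shown above (chromosome 2, 34771970 to 34777547, plus strand, 9 exons), was at 150.3, 224 and 245 TPM in the left and 64, 93.8 and 67 TPM in the right kidneys. The groups did not overlap, and the sham kidneys, at 128 and 156 TPM on the left and 110.1 and 157 TPM on the right, lay above all right coarctation kidneys and below the left kidneys of mice 2 and 3. It missed the threshold narrowly (log2 change -1.61, SE 0.18, adjusted p = 0.0529), and limma-voom, DESeq2, scaling to library totals and either other filter on low counts called it (adjusted p from 3.94e-17 to 0.284 across the alternatives). Hsp90b1, the Hsp90 chaperone of the compartment and the bearer of a pair of elements, was at 214, 209 and 182 TPM in the left and 125, 119 and 114 TPM in the right kidneys, with nearly the same change in each mouse (-0.87, -0.96 and -0.90; adjusted p = 0.0741). Calr, a calcium-binding lectin chaperone (chromosome 8, 84841850 to 84846934, minus strand), was at 99.6, 73.9 and 66.9 TPM in the left and 41.5, 37.2 and 38.3 TPM in the right kidneys (log2 change -1.18, SE 0.17, adjusted p = 0.104). Both were lower in every right kidney than in any left one.

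The other 4 members with an element in their promoter were taken for that reason and not for their values. Canx, the membrane-bound relative of Calr, had a log2 change of -0.58 (SE 0.17), the disulfide isomerase gene Pdia6 of -0.68 (SE 0.27), the cochaperone gene Dnajc3 of -0.37 (SE 0.18) and Creld2 of -1.10 (SE 0.33). Exons of Pdia6 overlap those of Atp6v1c2 on the other strand, so reads from the overlap cannot be assigned. All 7 genes of this list with an element were lower in the right kidney in each of the 3 mice. None of the 7 passed over all genes. Of all 29 tested members, these 7 included, 16 were lower in each mouse, against 13.5% of all genes. Whether the element goes with the direction was not tested. Among all tested genes 21 held the element, and those outside this list and the next are not described here. Values were lower in members without a match too. Fkbp2, a prolyl isomerase of the compartment, was at 1044, 1126 and 699.6 TPM in the left and 467, 579 and 449.7 TPM in the right kidneys (log2 change -1.08, SE 0.15, adjusted p = 0.0734). Its relative Fkbp11, named after its values were seen, was at 35, 44.6 and 34.4 TPM and 7.91, 13.3 and 6.88 TPM. The 3 members with a change above 0 were Txndc11 (0.63, SE 0.36), Ero1l and Dnajc10, of which the latter pair were lower in the right kidney of at least 1 mouse.

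**Figure D3:**
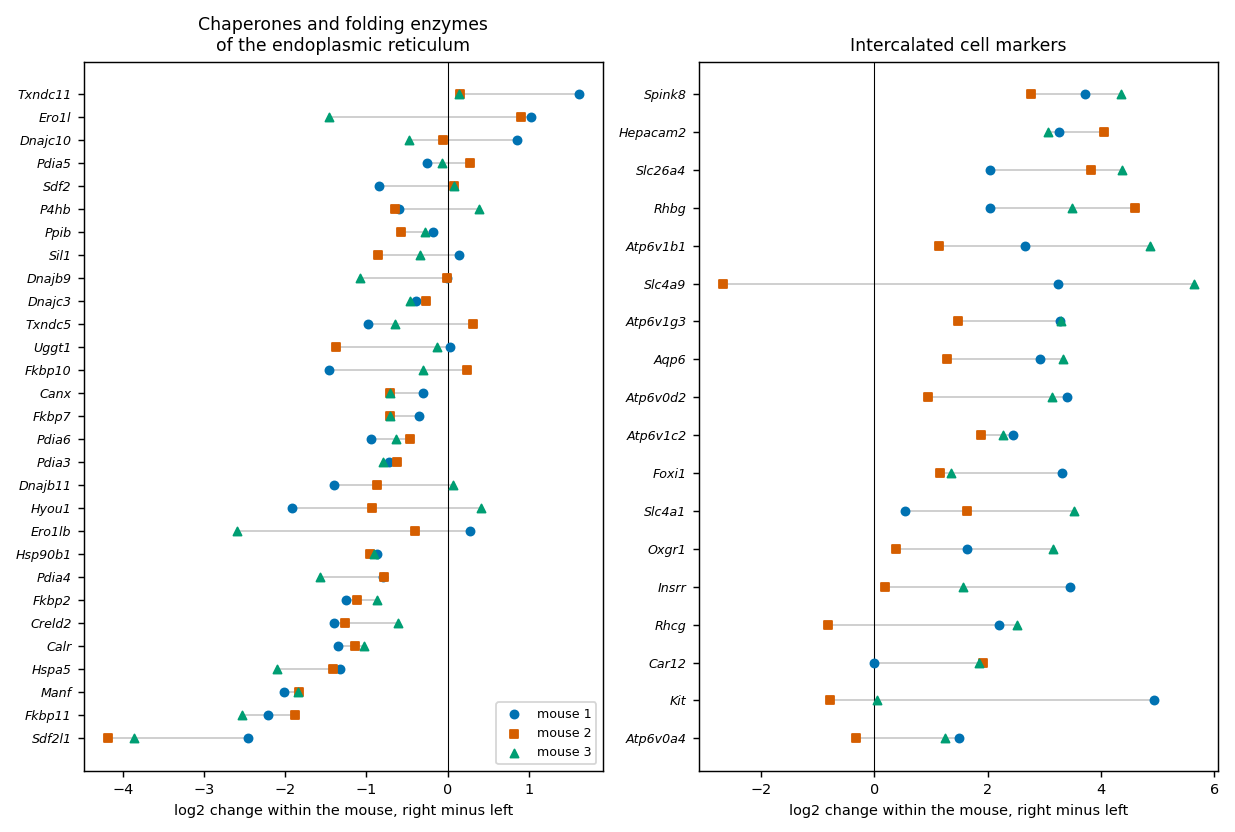
Log2 change from left to right kidney within each coarctation mouse for the 29 tested chaperones and folding enzymes of the endoplasmic reticulum and the 18 tested markers of intercalated cells, ordered by the fitted change. Most points of the first list lie below 0 in all 3 mice, and most of the second above 0, with mouse 2 often the smallest.

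The sensors and effectors of the unfolded protein response and the factors that clear misfolded protein had a log2 change below 0 in 23 of 26 tested members (median -0.41), with 8 lower and 2 higher in all 3 mice and 4 lower (Derl3, Selenos, Derl1 and Atf4) and 2 higher (Ppp1r15a and Mbtps1) at an unadjusted p under 0.05. None passed over all genes. This list depended on single mice: 17 members were below 0 without mouse 3 (median -0.22) and 18 without mouse 1 or mouse 2, and with libraries scaled to their totals 19 (median -0.25). Derl3, a channel component for the export of misfolded protein, was at 1.84, 11.7 and 8.15 TPM in the left kidneys, and at 0.0293, 0.229 and 0 TPM in the right ones, where the third is listed at 0. The transcript was low in sham kidneys too, at 1.25 and 0.117 TPM on the left and 0.657 and 0.0271 TPM on the right (adjusted p of the side change after coarctation = 0.185). Its promoter and that of Syvn1, a ubiquitin ligase of the same route, also held the element, in 2 of the 22 members with a promoter; Syvn1 had a log2 change of -0.32 (SE 0.54), not in the same direction in each mouse. Selenos, a selenoprotein of the export complex, was lower in each of the 3 mice (log2 change -0.88, SE 0.15).

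Of the transcription factors of the response, those named here had log2 changes near the median of that list (-0.41) or beyond it. Xbp1 had a log2 change of -0.40 (SE 0.20), Atf4 of -0.63 (SE 0.27), with mouse 3 near 0 and Ddit3 of -0.42 (SE 0.19). These 3 were named after their values were seen. Ppp1r15a, a phosphatase subunit that ends the translational arm of the response, went the other way, at 71.4, 232 and 206 TPM in the left and 150.3, 409.8 and 296 TPM in the right kidneys (log2 change 0.65, SE 0.17, adjusted p = 0.596).

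Import into the endoplasmic reticulum and the first steps of glycosylation showed the same direction with smaller changes. Of 36 tested members 32 were below 0, 19 were lower and 0 higher in all 3 mice, and 14 were lower and 0 higher at an unadjusted p under 0.05 (median log2 change -0.38, and -0.44, -0.40 and -0.40 within mice 1, 2 and 3, against 0.07 and 0.02 in the sham mice). The 14 became 4 without coarctation mouse 2 (median -0.25), and 6 with libraries scaled to their totals (median -0.22), with a stricter filter (at least 50 counts in 3 libraries) or without the replicate block. Ssr4, a subunit of the translocon-associated complex, was at 397, 489 and 413 TPM in the left and 226, 264 and 255 TPM in the right kidneys, a change that was nearly equal in the 3 mice (-0.91, -1.04 and -0.93; adjusted p = 0.162). Sec11c, a catalytic subunit of signal peptidase, was at 329.5, 438 and 283 TPM and 216, 248 and 171 TPM. Krtcap2, a subunit of the oligosaccharyltransferase, had a log2 change of -0.82 (SE 0.17), and Srpr, the receptor of the signal recognition particle, of -0.98 (SE 0.21). None passed over all genes.

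Transport from the endoplasmic reticulum to the Golgi apparatus had a log2 change below 0 in 31 of 34 tested members (median -0.32, and -0.17 with libraries scaled to their totals), with 16 lower and 0 higher in all 3 mice but only 6 lower at an unadjusted p under 0.05, and 1 without coarctation mouse 2. The coat protein gene Copa had a log2 change of -0.73 (SE 0.20), the cargo receptor gene Surf4 of -0.82 (SE 0.23) and the coat GTPase gene Sar1a of -0.66 (SE 0.18). Creb3l1, a transcription factor held in the endoplasmic reticulum membrane until it is cleaved in the Golgi, was low throughout, at 1.21, 0.559 and 0.625 TPM in the left and 0.0479, 0.0817 and 0.117 TPM in the right kidneys. On the right of sham mice 1 and 2, Copa was lower too (log2 change -0.54 and -0.39), as was Creb3l1 (-1.94 and -1.09). Sar1a was higher there (0.20 and 0.16), and Surf4 differed in sign (0.18 and -0.21). The median of the list was -0.17 and 0.13 in these sham mice. Joined, these 4 lists hold 125 tested genes, of which 112 were below 0, 59 were lower and 3 higher in all 3 mice, and 39 were lower and 2 higher at an unadjusted p under 0.05. The 39 became 17 without coarctation mouse 2 (98 below 0), 22 without the replicate block (108 below 0), 25 with libraries scaled to their totals (100 below 0) and 26 with the stricter filter (102 of 123 below 0).

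Genes of lysosomes and granules, the storage compartment of renin, were nearer to the background. Of 29 tested members 8 were lower and 4 higher in all 3 mice, and 2 were lower at an unadjusted p under 0.05 (median log2 change -0.10, which was 0.05 when scaled to library totals alone). Ctsb, the lysosomal protease cathepsin B, was at 177, 323 and 189 TPM in the left and 80.02, 139 and 128 TPM in the right kidneys, with no overlap (log2 change -1.14, SE 0.18, adjusted p = 0.137). Its exons overlap those of Fdft1 on the other strand, so a part of the reads of both genes may be shared. The granule membrane gene Cd63 was at 1809, 2344 and 2059 TPM and 1312, 2051 and 1921 TPM. The related protease gene Ctsl had a log2 change of -0.36 (SE 0.16), and Gpr137b, a lysosomal membrane protein gene that is among the 15 lower genes of smallest p, was at 63.8, 82.2 and 72.2 TPM in the left and 33.9, 44.8 and 37.7 TPM in the right kidneys (adjusted p = 0.0734).

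Transcripts of the cytosolic ribosome had slightly lower levels in the right kidney. Of 44 tested members 43 were below 0, 32 were lower and 0 higher in all 3 mice, and 18 were lower and 0 higher at an unadjusted p under 0.05, with a median log2 change of -0.34 (-0.37, -0.48 and -0.16 within mice 1, 2 and 3). Rps25 was at 810.3, 866 and 731 TPM in the left and 583, 576 and 752 TPM in the right kidneys, and Rpl14 at 504, 551 and 536 TPM and 359, 411 and 576 TPM. In both genes the right kidney of mouse 3 had a slightly higher TPM than the left. These changes are small enough to depend on scaling and on 1 mouse: the number at an unadjusted p under 0.05 was 0 with libraries scaled to their totals (median -0.18), 0 without coarctation mouse 2 (median -0.12) 0 without the replicate block, 1 with the stricter filter and 3 with DESeq2. Ribosomal protein genes also have many near-identical copies in the genome, so their counts are uncertain. Genes of the proteasome had 0 members at an unadjusted p under 0.05 in either direction of 26 tested (median -0.07).

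Receptors and enzymes that set cyclic AMP, the main signal for renin synthesis, had a log2 change below 0 in 30 of 43 tested members, with 11 lower and 3 higher in all 3 mice and 4 lower and 1 higher at an unadjusted p under 0.05 (median -0.19). The direction of this list rests on mouse 1 and on scaling: the medians within mice 1, 2 and 3 were -0.46, -0.02 and 0.07, without mouse 1 22 members were below 0 and 3 were lower and 3 higher at that p (median -0.01), and with libraries scaled to their totals 23 were below 0 and 3 were lower and 4 higher (median -0.03). Adrb1, the beta-1 adrenergic receptor through which nerves release renin, was at 10.7, 19.7 and 7.32 TPM in the left and 2.85, 3.78 and 4.61 TPM in the right kidneys. Every right kidney was below every left one, mouse 3 with the smallest difference (log2 change -1.82, SE 0.45, adjusted p = 0.521). Pde4b, a phosphodiesterase that degrades cyclic AMP and is itself induced by it, was at 42.4, 63.5 and 50.5 TPM in the left and 32.6, 33.6 and 25 TPM in the right kidneys. Crem, a transcription factor gene that cyclic AMP induces, was at 75, 70.8 and 75 TPM and 44.4, 42.1 and 55.8 TPM, also without overlap. Pde5a, the phosphodiesterase of cyclic GMP, went the other way at low levels, at 0.808, 0.695 and 0.869 TPM in the left and 2.19, 2.13 and 3.01 TPM in the right kidneys. None of these 4 passed over all genes. In sham mice the log2 change of Pde5a was of the same size, at 1.52.

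Immediate early genes, which respond to many stimuli including cell isolation, had 5 members lower and 2 higher of 26 tested at an unadjusted p under 0.05, and 10 lower and 5 higher in all 3 mice. The split turned to 2 lower and 4 higher with libraries scaled to their totals and to 3 and 4 with the stricter filter on low counts, was 2 and 2 without mouse 1 or mouse 2, and was 0 and 0 without the replicate block. Fosb was at 145, 273 and 208 TPM in the left and 76.3, 229 and 180.4 TPM in the right kidneys, Zfp36 had a log2 change of -0.59 (SE 0.18) and Klf2 of -0.46 (SE 0.14). Nr4a2, an orphan nuclear receptor gene of the same class, was higher in the right kidney of each mouse, at 9.16, 25.1 and 23.9 TPM in the left and 16.6, 56.2 and 68.7 TPM in the right kidneys, and was lower on the right in both sham mice (fitted log2 change -0.51). It did not pass (adjusted p = 0.442). The members of the renin-angiotensin system other than renin had 0 of 11 tested members at an unadjusted p under 0.05 in either direction. Agt, the substrate of renin, was at 1.01, 0.461 and 0.0211 TPM in the left and 2.84, 1.4 and 1.03 TPM in the right kidneys, near the floor of detection.

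Inflammation and chemokine genes were below 0 in 20 of 23 tested members (median log2 change -0.34, and -0.18 with libraries scaled to their totals), but only 1 was lower at an unadjusted p under 0.05 and 5 were lower in all 3 mice. This 1 was Socs3, a feedback inhibitor of cytokine signalling, at 13.8, 54.3 and 19.9 TPM in the left and 7.22, 19.6 and 11.2 TPM in the right kidneys (log2 change -1.24, SE 0.27, adjusted p = 0.406). Interferon response genes had 1 of 22 lower at that p, Irf1, and a median of -0.03. Members of the Notch pathway, which maintains the renin cell identity, had 1 of 16 tested higher and 0 lower. It was Hes1, at 178, 295 and 213 TPM in the left and 222, 454 and 418 TPM in the right kidneys (log2 change 0.48, SE 0.17).

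Kiss1 was the call with the largest change. It encodes kisspeptin, a peptide best known for the control of reproductive hormones (chromosome 1, 133321875 to 133329901, plus strand, 3 exons). It was at 33.1, 224 and 206 TPM in the left and 0.116, 0.772 and 7.1 TPM in the right kidneys of mice 1, 2 and 3, which corresponds to 270, 2059 and 1845 against 1, 8 and 59 estimated counts. The fitted log2 change was -6.75 (SE 0.70, adjusted p = 0.0437), and with so few counts on the right its size is poorly fixed. In the sham mice Kiss1 was also lower on the right, by less, at 145 and 258 TPM on the left and 84.5 and 98.3 TPM on the right. Exons of Kiss1 overlap those of Golt1a and Gm28040 on the same strand, which makes its count uncertain. The log2 change of Gm28040 was 0.23 (SE 0.59).

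Of the 15 lower genes of smallest p, the 3 not yet described act outside the secretory pathway. Ptp4a3, a protein tyrosine phosphatase (chromosome 15, 73723145 to 73758766, plus strand), was at 128, 225 and 136 TPM in the left and 35.3, 90.4 and 79.5 TPM in the right kidneys. Eno3, the muscle form of the glycolytic enzyme enolase (chromosome 11, 70657202 to 70662513, plus strand), was at 34.1, 68.7 and 41.3 TPM and 9.32, 30.2 and 14 TPM. Npr3, the clearance receptor for natriuretic peptides, was at 6.43, 5.57 and 3.09 TPM and 1.02, 1.41 and 1.15 TPM. In all 3 genes no right kidney reached the lowest left one, and in sham mice the sides differed by -0.07, 0.19 and -0.23 on the log2 scale. None passed (adjusted p = 0.0734, 0.0734 and 0.117).

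Of the 15 higher genes of smallest p, those next described are on no list of markers of other cell types. Rergl, a small GTPase gene of contractile smooth muscle (chromosome 6, 139492973 to 139501976, minus strand), was at 608, 771 and 1073 TPM in the left and 1589, 2014 and 2021 TPM in the right kidneys, without overlap (log2 change 1.07, SE 0.15, adjusted p = 0.0734). It was higher on the right in both sham mice too, at 629 and 685 TPM on the left and 950.1 and 842 TPM on the right. Serping1, which encodes the inhibitor of complement C1 (chromosome 2, 84765387 to 84775444, minus strand), was at 45.4, 91.8 and 78.6 TPM and 139, 223 and 202 TPM, each mouse with more than a doubling on the right, while sham kidneys were at 70.9 and 126 TPM on the left and 60.2 and 137 TPM on the right (log2 change after coarctation 1.26, SE 0.17, adjusted p = 0.0734).

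Pcp4l1, a small protein gene related to calmodulin regulators, was at 393, 652 and 578 TPM in the left and 601, 1148 and 1043 TPM in the right kidneys, with like changes in each mouse (0.52, 0.66 and 0.62). Olfr78, an olfactory receptor known from the juxtaglomerular apparatus where it responds to short fatty acids, was at 6.94, 14.7 and 13.4 TPM in the left and 21.8, 36.5 and 33.1 TPM in the right kidneys. No left kidney reached the lowest right one for Olfr78, although it shares exon sequence with Olfr560 and is uncertain for that reason. Ephx3, an epoxide hydrolase, was at 5.31, 12.9 and 7.69 TPM in the left and 22.9, 29.6 and 25.6 TPM in the right kidneys, and was also higher on the right in sham mice (log2 change 0.81). Cox7a1, a muscle form of a cytochrome oxidase subunit, had a log2 change of 1.24 (SE 0.22) and Aif1l, an actin-binding protein gene, of 2.05 (SE 0.41). None of these 5 passed, with adjusted p from 0.207 to 0.442.

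Vtn, which encodes the matrix protein vitronectin (chromosome 11, 78499091 to 78502324, plus strand), was nearly absent from the left kidneys, with 0, 2 and 0 estimated counts against 159, 437 and 208 in the right kidneys. Summed over the mice and scaled to depth the ratio of right to left was 342, with a Clopper-Pearson 95% interval of 94.3 to 2827 that covers counting error only. The interval takes each count as an independent read, although the counts are estimates from amplified RNA without molecular identifiers. It leaves out the spread between mice. Sham mice 1 and 2 had 92 and 29 counts on the left and 14 and 11 on the right. The adjusted p was 0.0734, and limma-voom, DESeq2 and the fit with no filter on low counts called it (adjusted p from 5.95e-09 to 0.636 across the alternatives). Other matrix genes had log2 changes from -2.38 (Mmp2) upward; with Vtn counted, 1 member was lower (Col18a1) and 2 higher (Vtn and Col5a1) of 31 tested at an unadjusted p under 0.05.

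Contractile smooth muscle genes as a list had no common direction, with 3 lower and 2 higher of 20 tested at an unadjusted p under 0.05 (median log2 change -0.02). Scaled to library totals the list had 0 lower and 3 higher, with 14 members above 0 (median 0.13), with the stricter filter 1 and 3, without mouse 1 0 and 1, without mouse 2 0 and 0 and without mouse 3 1 and 3. Acta2, smooth muscle actin, was at 1047, 1571 and 1802 TPM in the left and 1163, 2915 and 2326 TPM in the right kidneys, a difference carried mostly by mouse 2 (0.06, 0.74 and 0.14 within mice 1, 2 and 3; adjusted p = 0.839). Myh11, smooth muscle myosin, was at 94.2, 126 and 166 TPM and 109.9, 179.97 and 133 TPM (log2 change -0.02, SE 0.18), and its sign differs between mice and turns under other scalings. Myocd, the coactivator of smooth muscle genes, was at 2.05, 3.51 and 8.76 TPM in the left and 9.61, 11.5 and 12.7 TPM in the right kidneys, without overlap (log2 change 1.34, SE 0.45, adjusted p = 0.768), and also higher on the right in sham mice (0.97).

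Transcripts tied to the sensing of force showed no common direction. Lmna, the gene of the A-type lamins that stiffen the nucleus, was at 47.9, 68.6 and 48.9 TPM in the left and 38.5, 85.7 and 51 TPM in the right kidneys, with no common direction in the 3 mice (log2 change -0.14, SE 0.21; above 0 when scaled to library totals alone). None of the 15 tested members of the lamina and LINC complex list was at an unadjusted p under 0.05 in edgeR (0 lower, 0 higher). Of 20 tested targets of YAP and SRF 3 were lower and 2 higher at that p, which became 0 and 2 with libraries scaled to their totals or without mouse 1, 1 and 1 without mouse 2 or mouse 3 and 0 and 1 without the replicate block. Among the latter Cyr61, a matrix-associated signalling protein gene, was at 82.2, 197 and 141 TPM in the left and 144, 331 and 208 TPM in the right kidneys (log2 change 0.55, SE 0.14), while Actb, cytoplasmic actin, had a log2 change of -0.31 (SE 0.11).

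Genes of sterol synthesis were below 0 in 20 of 24 tested members (median log2 change -0.38), with 8 lower and 1 higher in all 3 mice and 2 lower at an unadjusted p under 0.05 (median -0.22 with libraries scaled to their totals and -0.23 without mouse 3). Fdps, which makes farnesyl diphosphate, was at 49.9, 66.5 and 59.2 TPM in the left and 22.8, 44.5 and 32.6 TPM in the right kidneys, without overlap (log2 change -1.02, SE 0.27, adjusted p = 0.606). Fdft1, which commits this intermediate to sterols, had a log2 change of -0.66 (SE 0.27). In sham mice 1 and 2 the median of this list was -0.24 and near 0. Fdft1 changed by -0.47 and -0.71 in these sham mice, and Fdps by -0.86 and 0.24. Hypoxia-inducible and glycolytic genes had 1 of 29 tested members lower and 0 higher at that p. That member, Gpi1, the second enzyme of glycolysis, was at 234, 345 and 219 TPM and 100.4, 182 and 200.1 TPM.

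The remaining lists of cell functions lay at or below the background of 3.30% lower and 2.63% higher at an unadjusted p under 0.05, or differed from it by a single gene. Nuclear-encoded respiratory chain genes had 1 lower (Ndufa2) and 1 higher (Cycs) of 34, with a median near 0, mitochondrially encoded genes 1 lower of 13 (mt-Co2; median 0.02), cytosolic heat shock proteins 1 higher of 22 (Stip1; median -0.04), oxidative stress genes 0 of 20 in either direction (median -0.04) and cell cycle genes 1 higher of 22 (Cdk1; median 0.02). Fitted log2 changes in the sham mice were 3.52 for Cdk1, -0.45 for mt-Co2, 0.42 for Stip1, -0.05 for Ndufa2 and -0.07 for Cycs. Counts of mitochondrially encoded genes are uncertain, since the gene Gm29216, at 25684 to 40936 TPM in the 6 libraries, may share their reads. Of the chaperones of the cytosol, Hspa8 had a log2 change of -0.19 (SE 0.13) and Hsp90ab1 of -0.25 (SE 0.16), next to -1.61 for Hspa5 and -0.91 for Hsp90b1. The difference between these lists was not tested.

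**Figure D4:**
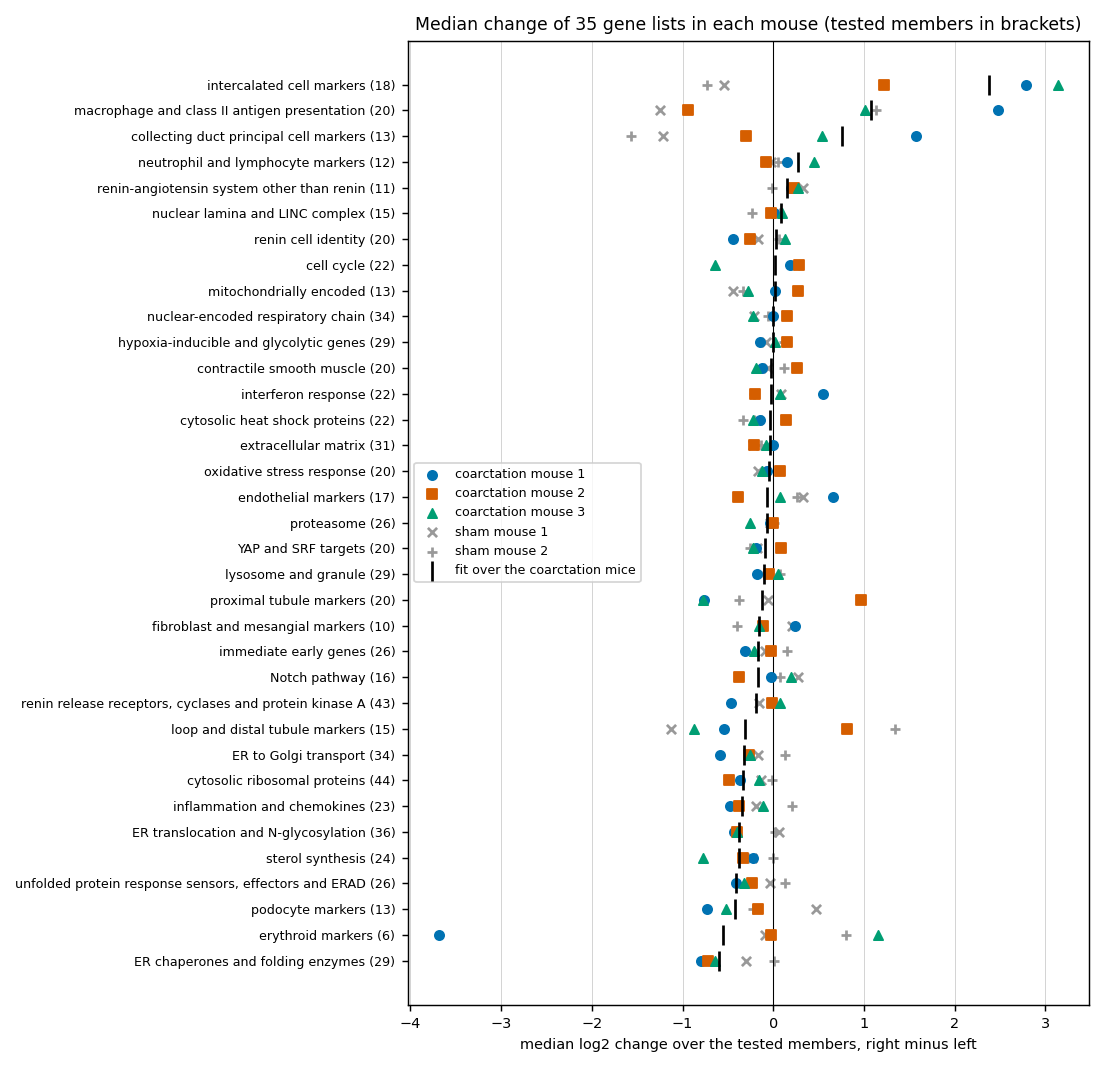
Median log2 change from left to right kidney over the tested members of each of 35 gene lists, with coloured points for the 3 coarctation mice, grey crosses for the 2 sham mice and a black bar for the fit. The list of chaperones of the endoplasmic reticulum has the lowest fitted median (-0.59) and a narrow spread between mice, while markers of intercalated cells have the highest (2.38).

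Transcripts of other cell types differed between the sides as well, and most of all those of intercalated cells, the acid-secreting cells of the collecting duct. All 18 tested markers had a log2 change above 0, 13 were higher and 0 lower in all 3 mice, and 12 were higher and 0 lower at an unadjusted p under 0.05 (median 2.38, and 2.79, 1.22 and 3.14 within mice 1, 2 and 3). Without coarctation mouse 3 the 12 became 7 (median 2.14). Their summed level was 119, 47.6 and 23.5 TPM in the left kidneys of mice 1, 2 and 3 and 1086, 177 and 284 TPM in the right ones. In sham mice 1 and 2 it was 209 and 265 TPM on the left and 189 and 126 TPM on the right, above every left coarctation kidney, and for sham mouse 2 on the right also below every right one. The part of these cells in the changes of other genes was not tested.

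Spink8, a secreted protease inhibitor gene of the Kazal type (chromosome 9, 109812280 to 109826633, plus strand, 5 exons), was higher in the right kidney than in the left. It was placed on the intercalated list with earlier results of these data known, and without it the list had 17 tested members, all above 0, with 12 higher in all 3 mice and 11 at an unadjusted p under 0.05. Spink8 was at 15.2, 7.85 and 4.58 TPM in the left and 215, 60.1 and 112 TPM in the right kidneys, without overlap (log2 change 3.63, SE 0.39, adjusted p = 0.0437). Sham kidneys were at 60.1 and 74.8 TPM on the left and 38.1 and 24.2 TPM on the right, so the left coarctation kidneys had the lowest levels of all 10.

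Hepacam2, a membrane protein gene of intercalated cells (chromosome 6, 3457096 to 3498298, minus strand), was at 2.58, 0.179 and 0.525 TPM in the left and 26.7, 3.63 and 5.31 TPM in the right kidneys (log2 change 3.51, SE 0.43, adjusted p = 0.0734). Subunits of the proton pump of these cells were 3 of the 15 higher genes of smallest p. Atp6v1g3 was at 63.4, 24.3 and 8.78 TPM in the left and 654, 75.5 and 101 TPM in the right kidneys, Atp6v1c2 at 7.85, 3.22 and 2.51 TPM and 45.8, 13.4 and 14.3 TPM, and Atp6v0d2 at 2.83, 1.42 and 0.7 TPM and 32.1, 3.08 and 7.41 TPM. In all 4 genes the right kidney of mouse 1 was the highest of all 10 libraries. Foxi1, the transcription factor that defines these cells, was at 1.01, 0.0611 and 0.463 TPM and 10.9, 0.188 and 1.41 TPM, and the anion exchanger gene Slc26a4 at 2.17, 0.0677 and 0.267 TPM and 9.54, 1.38 and 7.05 TPM; both were named after their values were seen. Ckmt1, a mitochondrial creatine kinase on none of the lists, had its highest level in the same library, at 21.9, 4.5 and 5.48 TPM in the left and 128, 23.9 and 20.9 TPM in the right kidneys (log2 change 2.14, SE 0.29, adjusted p = 0.0734).

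**Figure D5:**
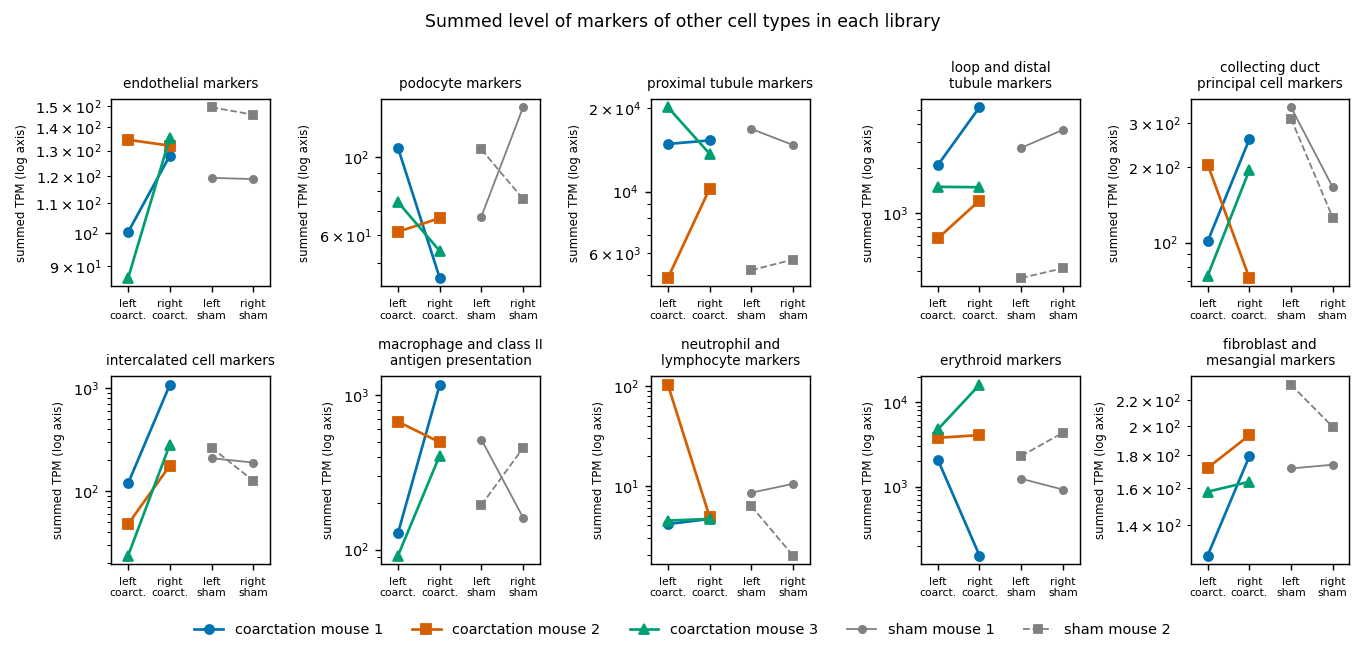
Summed TPM (log axis) of the markers of 10 other cell types in each library, with a line joining the kidneys of 1 mouse (coloured for coarctation, grey for sham). Intercalated markers are higher in every right coarctation kidney (177 to 1086 TPM) than in every left one (23.5 to 119 TPM), whereas the sums of proximal tubule, podocyte, macrophage and erythroid markers change in different directions in different mice.

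Markers of macrophages and of class II antigen presentation were above 0 in 17 of 20 tested members, with 5 higher and 1 lower in all 3 mice and 5 higher and 1 lower at an unadjusted p under 0.05 (median 1.08). The median was 2.48 and 1.01 in mice 1 and 3 but -0.94 in mouse 2, against -1.25 and 1.14 in sham mice 1 and 2. Without coarctation mouse 1 no member was higher at that p (0 of 20, median 0.41), and without the replicate block 12 were above 0 (median 0.14). The class II genes themselves were higher in each mouse: Cd74, the invariant chain, was at 51.2, 62.5 and 29.9 TPM in the left and 408, 190.05 and 76.4 TPM in the right kidneys, and H2-Eb1 at 5.51, 0.613 and 9.44 TPM and 59, 28.3 and 19.1 TPM. H2-DMb1, a subunit of the peptide loading factor, was the exception, at 7.16, 13.7 and 0.895 TPM and 2.24, 4.97 and 0.116 TPM, while its partner H2-DMa was at 3.03, 2.62 and 1.2 TPM and 12.6, 8.82 and 5.27 TPM. These genes are members of a multigene family whose reads may be divided between copies, and none passed over all genes.

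The other marker lists held few genes at an unadjusted p under 0.05. Principal cells of the collecting duct had 0 of 13, with 12 above 0. Their median log2 change was 0.76 (1.57, -0.30 and 0.53 within mice 1, 2 and 3, against -1.21 and -1.57 in the sham mice). Without mouse 2 all 13 were above 0 and 6 were higher at that p (median 1.73), and without mouse 1 the median was 0.15 and without mouse 3 0.36 (summed level 73.7 to 205 TPM in the left and 72.2 to 259 TPM in the right kidneys). Loop and distal tubule markers had 2 higher and 0 lower of 15, Klk1 and Calb1. The latter, a calcium-binding protein of the distal tubule, was at 45.6, 5.32 and 26.2 TPM in the left and 194, 21.8 and 40.03 TPM in the right kidneys (summed level of the list 669 to 2104 TPM on the left and 1210.3 to 5198 TPM on the right). The list had medians of -0.54, 0.82 and -0.88 in mice 1, 2 and 3, against -1.12 and 1.35 in the sham mice. Proximal tubule markers had 1 lower of 20, Slc22a8, with medians of -0.77, 0.96 and -0.78 in mice 1, 2 and 3 and sums of 4878 to 20166 TPM on the left and 10238 to 15307 TPM on the right. Podocyte markers had 2 lower of 13 and sums of 61.3 to 106 TPM and 45.2 to 67.0 TPM. Of these 13, 5 were lower and 1 higher in all 3 mice. Their median log2 change was -0.42 (-0.73, -0.17 and -0.52 within mice 1, 2 and 3). Endothelial markers had 1 lower (Cldn5) and 1 higher (Tek) of 17 (sums of 86.7 to 135 TPM and 128 to 135 TPM), and fibroblast and mesangial markers 0 of 10 (125 to 172 TPM and 164 to 194 TPM). Neutrophil and lymphocyte markers had 1 lower of 12, S100a9, and sums of 4.12 to 103 TPM and 4.64 to 4.87 TPM, the highest from the left kidney of mouse 2. Erythroid markers had 0 of 6 and sums of 2087 to 4738 TPM on the left and 153 to 15984 TPM on the right, the extremes from the right kidneys of mice 1 and 3. No marker list had a member at 0 in all 6 libraries, and the part of these cells in the results for renin cell genes was not tested.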

How the data were processed

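RNA was measured by RNA-seq in fluorescent cells sorted from each kidney of 5 mice, 10 libraries in all. Per the file headers the authors deposited TPM, estimated counts and average transcript lengths in bases for 32648 genes; a note in the file says that the counts were derived from length-scaled TPM. The submitters' processing notes list FastQC and the build GRCm38 (mm10). Aligner and quantifier: not given in the sources used here. Groups and mice were taken from the sample labels.

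The estimated counts, rounded to whole numbers, were tested with edgeR 4.0.16 in R 4.3.3. The filterByExpr function left 18825 genes, and libraries were scaled by TMM. One quasi-likelihood model over all 10 libraries held mouse as a block and a term for the right side within each surgery (3 residual degrees of freedom); p-values are two-sided and Benjamini-Hochberg adjusted over all tested genes, with a threshold of 0.05. Changes within a mouse are differences of log2 CPM (prior count 2). Depth was 20029817 to 32006229 estimated counts per library, without molecular identifiers. With mouse as a block, the spread of the right minus left change between mice, within each surgery, enters the errors. The fit also draws on the spread of the other tested genes, so the errors are not those of the 3 coarctation mice alone.

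The kidneys are paired because the labels give the mouse of each; the deviations of its left and right kidney from their group means correlated at 0.13, 0.05 and 0.03 in the 3 coarctation mice. Genes named are Ren1, EYFP, Akr1b7, Lmna, Acta2 and Myh11, all calls, the 15 lower and 15 higher genes with the smallest p (mean log2 CPM of at least 2, same direction in all 3 mice, no predicted genes) and up to 4 members of smallest p of each list; any other gene was chosen after its values were seen. Some genes that the rule selects are not reported here. The comparison, the 35 lists and their members were chosen with earlier results of these data known. Gene positions are those of GENCODE vM21 (GRCm38), and promoters those of RefSeq (GRCm38.p6). Exons of further named genes also overlap those of neighbouring genes in the annotation, so a part of their reads may be shared. The test was tried on simulated data. Alternatives were DESeq2 1.42.0, limma 3.58.1 (voom), other scalings and filters, no block, the 6 coarctation libraries alone and leaving out each mouse.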

Additional observations from a re-analysis of the deposited data

How the results depend on the processing

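The numbers of genes called depended on the test and on the block. The paired fit called 4 genes lower and 1 higher. With no replicate block it called 0 and 0, with the 6 coarctation libraries alone 1 and 0, with DESeq2 131 and 114, with limma-voom 12 and 5, with libraries scaled to their totals 4 and 4, with no filter on low counts (31370 genes) 110 and 82, and with the stricter filter (at least 50 counts in 3 libraries) 5 and 2. Leaving out 1 mouse at a time gave 0 to 6 lower and 0 to 1 higher. The difference between coarctation and sham was called for 0 genes, for 115 by DESeq2 and for 98 with no filter, and for 0 to 2 with 1 mouse left out. The causes were not tested. Scaling to library totals moved the median log2 change of all genes from 0.03 to 0.18.

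Of 1407 values of single named genes under the alternatives, 1265 kept their sign and their side of the threshold, 25 lost a call, 107 gained one and 10 changed sign, all of genes with small changes. Most of these values belong to genes without a call, and only the 5 called genes could lose one. Aldh7a1, Manf and Spink8 each lost theirs under 6 of 13 alternatives, Kiss1 under 5 and Ren1 under 2. Scaled to library totals, the log2 change was 0.017 for Lmna and 0.13 for Myh11, which was at 0.082 with the stricter filter and at 0.015 with DESeq2 and with RLE scaling in edgeR. With 1 mouse left out at a time it ran from -0.10 to 0.24 for Myh11, -0.53 to 0.14 for Syvn1, -0.26 to 0.48 for Gja4, -0.17 to 0.60 for Pdgfrb and -0.13 to 0.27 for Notch3, with the other sign each time without mouse 3. Few counts in one group limit what can be said of Kiss1, Vtn and Derl3, more than of abundant transcripts.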
